A study of Mus musculus with 6 samples.

Results

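The transcripts of 9 genes of the TGF-beta superfamily were followed in MS-5 cells, a mouse bone marrow stromal line that supports haematopoiesis, grown by themselves or together with the human AML line SKM-1. The genes were taken by name. They are the ligand genes Tgfb1, Tgfb2, Tgfb3, Inhba, Bmp2 and Bmp4, the BMP antagonist gene Grem1, the inhibitory SMAD gene Smad7 and the TGF-beta-induced matrix gene Tgfbi, out of 35968 genes with a transcript in the data. RNA-seq was done on 3 libraries of MS-5 cells alone (MO1, MO2 and MO3, called MS-5 only) and on 3 from MS-5 cells kept in co-culture for 24 hr (MC1, MC2 and MC3), plated with 4 SKM-1 cells per stromal cell over a confluent stromal layer. The labels give the same RPMI medium with serum for both groups and name no drug and no genetic change. SKM-1 cells were separated from the stroma before RNA was taken, and MS-5 is a single established line, so the libraries are not separate animals. The labels do not say whether the replicates came from separate cultures, so that p-values measure the spread between these libraries, which may be technical.

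TGF-beta isoforms are secreted in a latent complex, and once released they bind a pair of receptor kinases that phosphorylate SMAD2 and SMAD3. BMPs use related receptors and signal through SMAD1, SMAD5 and SMAD9, while activins, dimers of the subunit encoded by Inhba, share the SMAD2 and SMAD3 branch. Secreted antagonists such as gremlin hold BMPs away from their receptors, and SMAD7, itself a SMAD-induced gene product, closes a feedback loop at the receptor. In bone marrow stroma these ligands are known for their parts in matrix production, osteoblast differentiation and the quiescence of haematopoietic stem cells.

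Total estimated counts lay between 23978881 and 35694987 per library. On the second principal component of log2 CPM (counts scaled to a common library size, normalised by TMM), which held 25.6% of the variance, MO2 and MC3 stood apart from the other 4 libraries, 1 from each group, and neither the labels nor the methods name a batch for them. The mitochondrial share of counts was 6.03% in MO2 and 5.89% in MC3 but 10.5% to 13.1% in the others, and 65170 and 66456 transcripts were counted in them, where the others had 51533 to 57350. Values with a model term for this split, and without these libraries, are given below as counts and beside several genes. Of the 12 stromal markers, 10 were counted well enough to be tested, among them Col1a1, Vim, Pdgfrb and Cxcl12, whereas Lum and Dcn were at or near 0 in every library. Of the 12 leukocyte markers, 11 were tested and 7 were higher in co-culture at an adjusted p under 0.1, against 3.71% of all genes. Their summed level was 45.8 to 52.9 CPM in MS-5 only and 90.8 to 332 CPM in co-culture, highest in MC2. In MS-5 only most of it came from Lcp1 (25.1 to 31.3 CPM), Cd68 (10.9 to 19.1) and Cd53 (2.75 to 6.66). The other markers had at most 0.541 CPM there, and Irf8 was at 0 in every MS-5 only library. Cd68 (-0.34) and Cd53 (-0.11) had negative log2 fold changes. The other 9 tested markers had positive ones, such as Lcp1 (1.17), Spi1 (6.2) and Vav1 (7.5). The counting used mouse transcripts, and how much SKM-1 RNA was taken for mouse RNA was not tested.

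Tgfb1 was by far the most abundant of the 9 transcripts, and the BMP ligands and Grem1 were close to the limit of detection. Per length, in TPM (counts over transcript length, scaled to an equal sum in each library), the level of Tgfb1 averaged 74.1 over the 6 libraries (61.8 to 86.8) and ranked first in each of them. Tgfb2 followed with a mean level of 11.7 TPM, Tgfb3 with 10.6, Smad7 with 9.09 and Inhba with 6.89. The ranges of these 4 genes overlapped and their order changed from library to library, so they are not separated as neighbours. Tgfbi (0.822 TPM) and Bmp4 (0.721 TPM) were lower on average with overlapping ranges, and Bmp2 (0.0205 TPM) and Grem1 (0.02 TPM) had the lowest means. Part of the Bmp4 and Tgfbi levels rests on few counts of short non-coding transcripts. The retained intron Bmp4-204 (258 bases) held 72.2% of the Bmp4 TPM in MC2 from 3.49 counts. Tgfbi-202 (690 bases) held 63.2% of the Tgfbi TPM in MC3 from 8.69 counts. Bmp4 was at 0 TPM in MO1 and MO2, below Grem1, so these low genes have no fixed order. Transcripts of all TGF-beta isoforms were thus counted in every library of both groups.

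**Figure D1:**
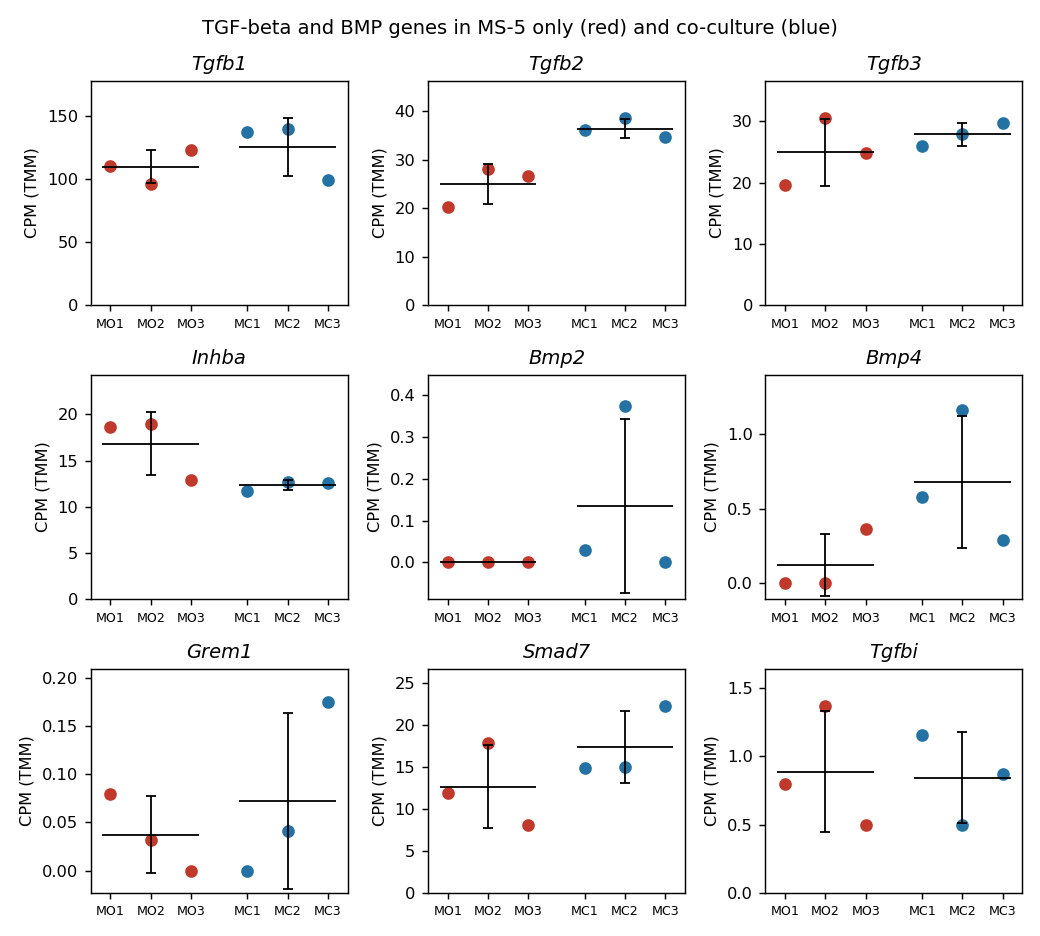
Normalised CPM (y axis, linear) of each of the 9 genes in each library (x axis), with MS-5 only in red and co-culture in blue; the horizontal line is the group mean and the bar its SD, n = 3. All co-culture points of Tgfb2 lie above and all those of Inhba below the MS-5 only points, and in the other 7 genes the groups overlap.

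After edgeR's filter on low counts, 6 of the 9 genes were tested among 13221 genes. The groups were compared with the quasi-likelihood test of edgeR, p-values were adjusted by Benjamini-Hochberg over all genes tested, and an adjusted p under 0.1 was taken as a change. Of the tested genes 0 passed, where 4.38% of all genes passed (3.71% higher and 0.666% lower in co-culture), and 1 passed by the Wald test of DESeq2 (by which 9.59% of all genes passed) and 0 by limma. Tgfb2 alone had an unadjusted p under 0.05, where 14.3% of all genes did and 8.62% did as higher. The groups did not overlap in 2 of the 6, Tgfb2 (above, as 11.6% of all genes) and Inhba (below, as 9.6% of all genes), where 21.2% of all genes had no overlap. The median log2 fold change was 0.17 in these 6 genes and -0.02 over all genes tested. It was positive in 4 of the 6, and in 6276 of all 13221. With 6 genes tested, these counts are near the shares of all genes.

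Tgfb2, which encodes the TGF-beta isoform best known for its roles in development and matrix, showed the clearest difference. It is on GRCm38 chromosome 1, minus strand, from 186622792 to 186705989 (ENSMUSG00000039239.14). It had 20.2, 28.1 and 26.6 CPM in MO1, MO2 and MO3, and 36.1, 38.5 and 34.6 CPM in MC1, MC2 and MC3. Every co-culture library was higher than every MS-5 only library. The means were 24.9 ± 4.18 CPM and 36.4 ± 1.97 CPM (SD, n = 3), a fitted 1.46-fold difference (log2 fold change 0.55, standard error 0.16, 95% interval 0.16 to 0.93, unadjusted p = 0.0134, adjusted p = 0.172 in edgeR), which did not pass the threshold. With a term in the model that sets MO2 and MC3 apart from the remaining libraries its adjusted p was 0.0373 (a fit in which 30.2% of all genes passed), with these libraries left out it was 0.0842 (a fit in which 13% of all genes passed), and by DESeq2's Wald test it was 0.0405, at log2 fold changes from 0.55 to 0.69. It did not pass in the other 14 alternatives, among them the replicate block (adjusted p = 0.461), library size alone (0.372), limma (0.905 to 0.924) and each library left out in turn (0.151 to 0.483). Within the 4 libraries other than MO2 and MC3, the mean log2 CPM differed by 0.69, and between MC3 and MO2 by 0.30. In TPM the groups overlapped, with 14.7 in MO2 above 12.6 in MC1 and 11.4 in MC2. The leukocyte marker sums were higher in all co-culture libraries too, and the part of SKM-1 RNA in the Tgfb2 counts was not tested.

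Among the transcripts of Tgfb2, 2 are annotated as coding, and they are shown because they differ by an exon. Their values were looked at after those of the gene were known and are given without a test. Tgfb2-206 holds an additional coding exon of 84 bases, 28 codons, at chr1:186690721-186690804 on the minus strand of GRCm38, which Tgfb2-201 skips. The sequences below are those of GENCODE M21 across the junction, 5′ to 3′, with the 84 bases of the cassette exon in capitals and 15 coding bases of each neighbouring exon in lower case.
Tgfb2-206: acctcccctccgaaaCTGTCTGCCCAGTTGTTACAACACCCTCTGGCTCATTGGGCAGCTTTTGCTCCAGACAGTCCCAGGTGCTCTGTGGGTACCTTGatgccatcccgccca
Tgfb2-201: acctcccctccgaaaatgccatcccgccca
The transcript that skips the exon, Tgfb2-201, had 12.7, 21.7 and 17.7 CPM in MS-5 only and 29.3, 29.0 and 27.6 CPM in co-culture. All co-culture libraries were above all MS-5 only libraries, and the mean log2 CPM differed by 0.75. The transcript that includes it, Tgfb2-206, had 6.59, 5.41 and 8.18 CPM in MS-5 only and 5.22, 8.42 and 6.53 CPM in co-culture, a mean log2 difference of -0.01, and its groups overlapped. The groups also overlapped in the ratio between the transcripts. The ratio of Tgfb2-201 to Tgfb2-206 counts was 1.92, 4.01 and 2.16 in MO1, MO2 and MO3 against 5.61, 3.45 and 4.22 in co-culture, with MO2 above MC2. Tgfb2-206 made up 18.5% to 32.8% of the TPM of the gene in MS-5 only and 13.4% to 22.8% in co-culture. The transcripts also differ in the length of their ends, by which the counting could divide reads between them.

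**Figure D2:**
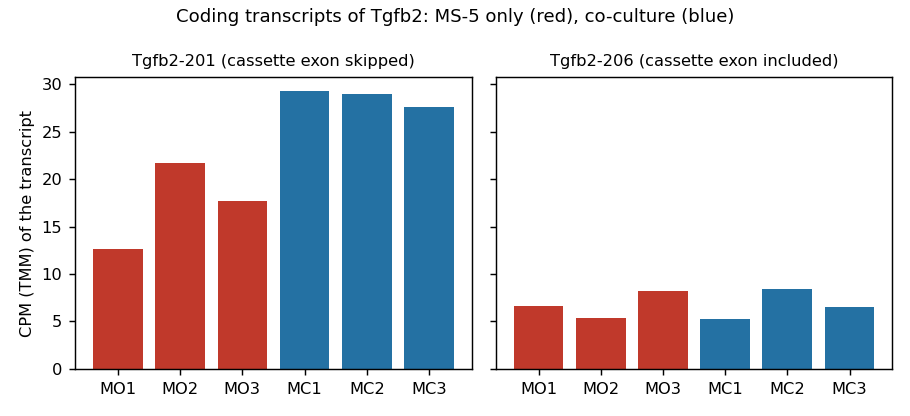
Normalised CPM (y axis) of the coding Tgfb2 transcripts in each library (x axis), red for MS-5 only and blue for co-culture, 1 bar per library. Tgfb2-201, without the cassette exon, is between 27.6 and 29.3 CPM in co-culture and between 12.7 and 21.7 CPM in MS-5 only, and Tgfb2-206 is between 5.22 and 8.42 CPM in all 6 libraries.

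Tgfb1, the isoform that dominates in most blood and stromal cells, did not pass the test. It is on chromosome 7, plus strand, from 25687002 to 25705077 (ENSMUSG00000002603.15). It had 110.9, 96.6 and 123.1 CPM in MS-5 only and 138, 140 and 99.4 CPM in co-culture. MC1 and MC2 were the highest libraries, but MC3 lay below MO1 and MO3, so the groups overlapped. The log2 fold change was 0.19 (standard error 0.18, 95% interval -0.25 to 0.62, adjusted p = 0.762 in edgeR). Its coding transcript Tgfb1-201 held 94.5% to 99.1% of its TPM in every library.

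Tgfb3, the third isoform, is on chromosome 12, minus strand, from 86056745 to 86079041 (ENSMUSG00000021253.7), where its span overlaps that of Ttll5 on the other strand. It had 19.6, 30.5 and 24.8 CPM in MS-5 only and 26.0, 28 and 29.8 CPM in co-culture. The highest and the lowest values were both MS-5 only libraries, and MO2, the highest, was also the library that stood apart in that group. The log2 fold change was 0.16 (standard error 0.19, 95% interval -0.29 to 0.61, adjusted p = 0.825).

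The isoforms were then set against each other within each library, in TPM, for the 3 pairs. Tgfb2 over Tgfb3 was 0.996, 0.93 and 1.04 in MO1, MO2 and MO3 and reached 1.45, 1.28 and 1.09 in co-culture, so that Tgfb2 was the more abundant of the pair in every co-culture library. The ratio with all transcripts summed was higher in each co-culture library than in each MS-5 only library, by 0.36 on the log2 scale. An exact two-sided permutation test gave p = 0.1, the smallest that 3 libraries against 3 can give, or 0.3 adjusted over the 3 pairs. Tgfb1 over Tgfb2 was 5.66 to 9.52 in MS-5 only and 5.13 to 6.32 in co-culture, and Tgfb1 over Tgfb3 was 5.27 to 9.49 without SKM-1 cells and 5.6 to 8.7 with them, both with overlapping groups.

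Inhba, which encodes the beta A subunit of activin A and of inhibin A, lay in the opposite direction. It is on chromosome 13, plus strand, from 16011851 to 16031621 (ENSMUSG00000041324.14), and the span of the antisense gene Gm48444 runs over its 3′ end. It had 18.6, 19.0 and 12.9 CPM in MS-5 only and 11.7, 12.7 and 12.6 CPM in co-culture. Every co-culture library was below every MS-5 only library, but MO3 was only just above MC2. The means were 16.8 ± 3.4 CPM and 12.3 ± 0.515 CPM (SD, n = 3), and the log2 fold change was -0.45 (standard error 0.19, 95% interval -0.90 to 0.0038, unadjusted p = 0.0515, adjusted p = 0.355 in edgeR). With the term for MO2 and MC3 the adjusted p was 0.0933, and with these libraries left out it was 0.354. In TPM the groups overlapped, with 5.07 in MO3 below 7.56 in MC3.

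Bmp4 and Bmp2, ligands with known roles in osteoblast commitment, were counted too rarely to pass the filter. Bmp4, on chromosome 14, minus strand, from 46383520 to 46390669 (ENSMUSG00000021835.15), was given 0, 0 and 8 counts in MO1, MO2 and MO3 and in MC1, MC2 and MC3 it was given 19, 28 and 10, or 0.121 ± 0.209 CPM and 0.678 ± 0.444 CPM (SD, n = 3). In CPM, MO3 (0.363) was above MC3 (0.291), so that the groups overlapped (p = 0.2, exact permutation test of log2 CPM). Bmp2, on chromosome 2, plus strand, from 133552159 to 133562885 (ENSMUSG00000027358.6), had 0 counts in each library of MS-5 only and 1, 9 and 0 in the co-culture libraries (p = 0.4, exact permutation test). A count of 0 allows a level of up to 0.0873 to 0.136 CPM in a library, taken at 3 counts, for counting error only. Both ligands were highest in MC2, where the leukocyte markers were highest as well, and the part of leukaemic RNA in these counts was not tested.

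Grem1, whose product gremlin 1 binds and blocks BMPs, is on chromosome 2, minus strand, from 113746164 to 113758646 (ENSMUSG00000074934.3). It was given 2, 1 and 0 counts without SKM-1 cells and 0, 1 and 6 with them, at or near the floor in both groups (p = 0.7, exact permutation test). No difference was detectable at this depth.

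Smad7, the feedback inhibitor of the TGF-beta receptor, is on chromosome 18. It had 11.9, 17.9 and 8.11 CPM in MS-5 only and 14.8, 14.9 and 22.2 CPM in co-culture. In each group the highest value was in the library that stood apart, MO2 or MC3, and MO2 lay above MC1 and MC2. The log2 fold change was 0.46 (standard error 0.32, 95% interval -0.32 to 1.23, adjusted p = 0.626 in edgeR). With the term for MO2 and MC3 it was 0.48 with a standard error of 0.16 and an adjusted p of 0.079, but without these libraries (0.59, adjusted p = 0.166) and with the replicate block (0.50, adjusted p = 0.848) it did not pass. The log2 CPM of these libraries exceeded that of the other 4 by 0.72 on average. With single libraries left out, the log2 fold change lay between 0.22 (without MO3) and 0.79 (without MO2), and without MC3 it was 0.24. The higher value in co-culture was seen both among the other 4 libraries (0.60) and between MC3 and MO2 (0.31).

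Tgfbi, which encodes a secreted matrix protein named for its induction by TGF-beta, is on chromosome 13, plus strand, from 56609523 to 56639562 (ENSMUSG00000035493.10). Its counts were 20, 43 and 11 in MO1, MO2 and MO3 and 38, 12 and 30 in MC1, MC2 and MC3. Both the highest and the lowest count came from MS-5 only. Its log2 fold change was -0.08 (standard error 0.53, 95% interval -1.34 to 1.19, adjusted p = 0.986), and its direction turned with the setting.

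**Figure D3:**
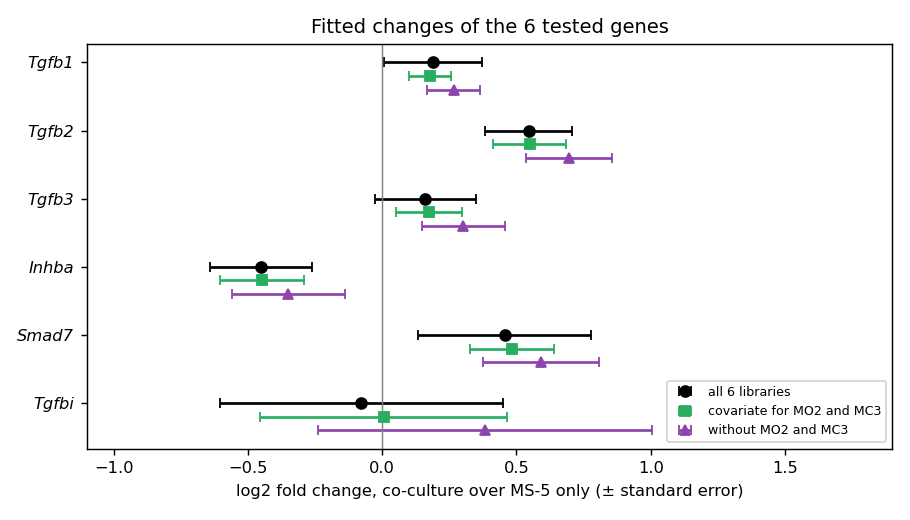
Log2 fold change of the 6 tested genes (x axis, co-culture over MS-5 only, with 1 standard error), fitted on all 6 libraries (black circles), with a term for MO2 and MC3 (green squares) and without these libraries (purple triangles). Tgfb2 lies between 0.55 and 0.69 and Inhba between -0.45 and -0.35 in the fits shown, and Tgfbi crosses 0.

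With the term for MO2 and MC3, 3 of the 6 tested genes passed, Tgfb2 and Smad7 as higher and Inhba as lower in co-culture, where 13.9% of all genes passed as higher, 16.4% as lower and 30.2% in either direction. With the replicate number as a block 0 passed, against 3.36% of all genes.

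The genes most like Tgfb2 in their pattern over the 6 libraries, by the mean absolute difference of centred log2 CPM, were Mturn (0.0388), Thsd1 (0.0458) and Zfp260 (0.0466), where the median over all genes was 0.399. Those most like Tgfb1, the ligand with the highest level, were Tmbim1 (0.0256), Pacs1 (0.0287) and Plekho2 (0.0302), with a median of 0.308. These distances are descriptions over 6 libraries and carry no test.

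The rest of the pathway was read from lists by role, in which 72 genes were tested beside the 9 listed. Of these 72, 1 passed the threshold, the antagonist gene Fstl3. Over all genes tested the share was 4.38%. With the term for MO2 and MC3 19 of the 72 passed, where 30.2% of all genes did. Without these libraries 12 of the 72 passed, where 13% of all genes did, so that the calls below depend on this split. Among the genes named below, Fstl3, Acvrl1, Thbs1, Ltbp3, Ski and Ccn2 passed as higher and Usp15 as lower in both of these fits. With the term only, Chrd, Acvr1b, Acvr2b, Gdf11, Smad3, Lrrc32 and Id2 passed as higher and Bmp5 as lower. Without these libraries only, Furin passed as higher and Gdf15 as lower.

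The secreted antagonists held the gene that changed. Fstl3, which encodes a follistatin-like protein that binds activins, rose from 73.0, 61.3 and 63.7 CPM in MS-5 only to 117, 99.0 and 94.8 CPM in co-culture. Every co-culture library was higher (log2 fold change 0.65, standard error 0.14, adjusted p = 0.0874 in edgeR). It passed with the term for MO2 and MC3 (adjusted p = 0.0138) and without these libraries (0.0778), and it no longer passed with the replicate block (0.272), with any library other than MC3 left out, with other filters, or by limma. Of the other 7 tested antagonists 0 passed, among them the BMP antagonists Chrd (log2 fold change 0.75, adjusted p = 0.497), Chrdl1 (-0.91, adjusted p = 0.529) and Nbl1 (1.10, adjusted p = 0.538). Nog, Sost, Sostdc1 and Dcn were among those that did not pass the filter.

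Of 12 tested receptor and co-receptor genes 0 passed, with a median log2 fold change of 0.18. Acvrl1, the type I receptor ALK1, was nearest, at 3.83, 5.32 and 6.12 CPM in MS-5 only and 13.4, 9.39 and 9.37 CPM in co-culture, without overlap (log2 fold change 1.08, standard error 0.26, adjusted p = 0.106). It passed with the term for MO2 and MC3 (adjusted p = 0.0291) with DESeq2's size factors or Wald test, and without these libraries (0.092), and it did not pass with the replicate block (0.332), with library size alone, by limma, with other filters or with any single library left out. The activin receptor genes Acvr2b (0.55, adjusted p = 0.433) and Acvr1b (0.35, adjusted p = 0.583) and the BMP receptor gene Bmpr2 (0.20, adjusted p = 0.592) had smaller log2 fold changes and overlapping groups.

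Among the other ligands, 4 of 18 were counted well enough to be tested and 0 passed. Bmp5 was lower in every co-culture library (log2 fold change -0.36, standard error 0.16, adjusted p = 0.39). Gdf11 (0.63, adjusted p = 0.536), Gdf5 (-0.49, adjusted p = 0.774) and the stress-linked ligand Gdf15 (-0.17, adjusted p = 0.966) had overlapping groups. Without MO2 and MC3 the log2 fold change of Gdf15 was -0.73 and passed (adjusted p = 0.077 in edgeR), and with the term for them it was -0.39 (adjusted p = 0.242).

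All 7 SMAD transducer genes were tested and 0 passed, with a median log2 fold change of -0.0015. Smad3, which carries TGF-beta and activin signals, was higher in every co-culture library (log2 fold change 0.36, standard error 0.15, adjusted p = 0.33). Smad9 (-0.17, adjusted p = 0.768), Smad4 (0.12, adjusted p = 0.831) and Smad1 (0.16, adjusted p = 0.841) overlapped between the groups.

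Of 11 tested genes for latency and activation 0 passed, and 9 had a positive log2 fold change (median 0.19), as did 6276 of all 13221 genes. Thbs1, whose product can release TGF-beta from its latent complex, had 335, 1127 and 642 CPM in MS-5 only and 1095, 1491 and 2067 CPM in co-culture. MO2 was above MC1, so that the groups overlapped (log2 fold change 1.15, standard error 0.48, adjusted p = 0.355), and with the term for MO2 and MC3 the adjusted p was 0.029. Lrrc32, which tethers latent TGF-beta to the cell surface, had a log2 fold change of 0.35 (adjusted p = 0.514). That of the latent TGF-beta binding protein gene Ltbp3 was 0.31 (adjusted p = 0.548), and that of Furin, a protease that matures these ligands, was 0.24 (adjusted p = 0.641), or 0.42 without MO2 and MC3, where it passed (adjusted p = 0.0895).

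Of 9 tested intracellular feedback genes 0 passed. The deubiquitinase gene Usp15 was lower in every co-culture library (log2 fold change -0.42, standard error 0.12, adjusted p = 0.156) and the co-repressor gene Ski was higher in every one (0.28, standard error 0.12, adjusted p = 0.364). With the term for MO2 and MC3 the adjusted p was 0.0194 for Usp15 and 0.0308 for Ski. Without these libraries it was 0.0911 and 0.0906, and with the replicate block 0.614 and 0.802. Usp15 also passed by DESeq2's Wald test. Nedd4l (0.31, adjusted p = 0.56) and Skil (0.26, adjusted p = 0.588) overlapped.

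The target genes gave no common direction. Of 15 tested TGF-beta target genes 0 passed, with a median log2 fold change of 0.26. Among them 9 were positive and 6 negative, where 6276 of all genes were positive and 6945 negative. The connective tissue growth factor gene Ccn2 (0.92, adjusted p = 0.44) overlapped between groups, and the lysyl oxidase gene Lox (0.33, adjusted p = 0.624) was higher in every co-culture library. Of 9 tested BMP target genes 0 passed either, with a median of -0.11, and the immediate BMP readouts Id2 (0.26, adjusted p = 0.548), Id1 (-0.30, adjusted p = 0.623) and Id3 (0.22, adjusted p = 0.738) and the osteoblast factor Runx2 (-0.19, adjusted p = 0.831) overlapped. In these bulk samples, fewer cells and less RNA per cell cannot be told apart.

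**Figure D4:**
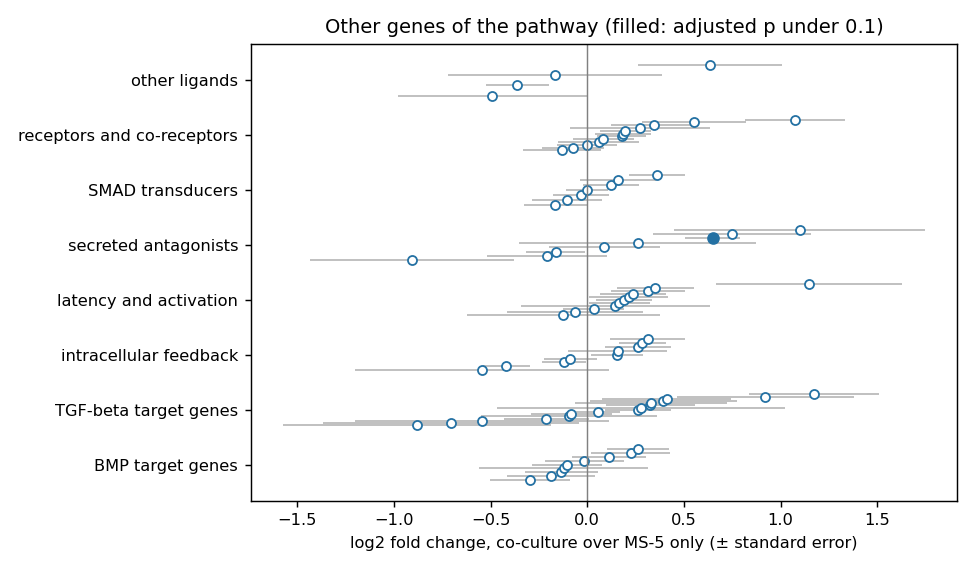
Log2 fold change (x axis, co-culture over MS-5 only, grey lines 1 standard error) of each tested gene of the other pathway lists, 1 row per list; the filled point has an adjusted p under 0.1. Only Fstl3, among the secreted antagonists, is filled, and every list has points on both sides of 0.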

How the data were processed

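The authors quantified reads of stranded mRNA libraries with kallisto 0.43.0 on a mouse GRCm38 cDNA index and deposited estimated counts and TPM for 118489 transcripts, per library and with no filter. TPM is the estimated count over effective length, scaled to an equal sum. Lengths, in bases, entered the limma fits and the ratios of Tgfb1, Tgfb2 and Tgfb3 through TPM, and no other test. Whether the counting used strand is not given in the sources used here, so reads of overlapping antisense genes cannot be told apart. Of the identifiers 116728 were found in GENCODE M21, and 1761 were not and were dropped.

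Here the estimated counts were added up by gene, rounded, passed through filterByExpr, normalised by TMM and tested with edgeR 4.0.16 (R 4.3.3) at an adjusted p under 0.1, the level of the study's results text. Sleuth, which the study used, was not run. A standard error is the log2 fold change over the root of F. Single values were compared by exact permutation of log2 CPM (prior count 2), and the ratios of Tgfb1, Tgfb2 and Tgfb3 by exact permutation of log2 TPM ratios. Groups and replicate numbers came from sample titles. The text names all listed genes and, in each pathway list, genes past the threshold and those with the smallest p up to 4. A few of these are not reported here. The listed genes and all lists were chosen with earlier results of these data known. The tests were tried on simulated data. Alternatives were DESeq2 1.42.0 (its size factors, its Wald test), plain library size, limma 3.58.1 on log2(TPM + 0.5), (TPM + 0.1) and (TPM + 1), a filter of 5 counts in 3 libraries, no filter, a replicate block, a term for MO2 and MC3, these libraries or any single one left out, and a threshold of 0.05.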

Additional observations from a re-analysis of the deposited data

How the results depend on the processing

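Tgfb1, Tgfb2, Tgfb3, Inhba and Smad7 kept their direction in all 17 alternatives run for each. Tgfbi turned positive in 7, at 0.16, 0.29 and 0.10 by limma on log2(TPM + 0.5), (TPM + 0.1) and (TPM + 1), 0.0053 with a term for MO2 and MC3, 0.38 without these libraries, and 0.38 and 0.18 without MO2 or MC2; with single libraries left out it ranged from -0.38 to 0.38, and the cause was not tested. With single libraries left out the log2 fold change lay between 0.10 and 0.33 in Tgfb1, 0.44 and 0.63 in Tgfb2, 0.04 and 0.33 in Tgfb3, and -0.61 and -0.35 in Inhba. Of the listed genes 0 passed, against 1 by DESeq2's Wald test and without MO2 and MC3 (Tgfb2 in both) and 3 with the term for them, and 0 in all other alternatives. Of the pathway genes 1 passed, against 2 with DESeq2's size factors, 4 by its Wald test, 19 with the term, 12 without MO2 and MC3, 0 by limma at each pseudocount, with other filters, with the replicate block or at a threshold of 0.05, and 0 to 1 with single libraries left out. Of all genes 579 passed, against 1268 by DESeq2's Wald test, 264 and 111 by limma with pseudocounts of 0.5 and 1, 3999 with the term, 1702 without MO2 and MC3, 2 at a threshold of 0.05, and 0 to 549 with single libraries left out (0 without any one MS-5 only library). The replicate numbers did not pair the libraries: deviations from the group means correlated across genes by 0.53, -0.29 and -0.52 for the same-numbered libraries 1, 2 and 3. The highest correlation between the groups, 0.73, was that of MO2 with MC3, which the replicate block does not pair. With the replicate block 444 genes passed, and the log2 fold change of Tgfb2 was 0.56 (adjusted p = 0.461 in edgeR). Bmp2, Bmp4 and Grem1 are limited by depth, at 0 to 28 counts per library.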
